A study of Rattus norvegicus with 12 samples.

Results

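The 10 genes described here encode vascular growth signals and their receptors. They are 4 ligands of the VEGF family (Vegfa, Vegfb, Vegfc and Pgf), 2 VEGF receptors (Flt1 and Kdr), the angiopoietins Angpt1 and Angpt2 with their receptor Tek, and the peptide adrenomedullin (Adm). They were chosen by symbol from the 34599 loci of a count table, and all 10 were among the 15101 genes with enough counts to be tested. RNA-seq counts were analysed from the left ventricle (LV) of 12 male Sprague Dawley rats, 4 per group. Sham rats underwent thoracotomy without ligation of the LAD, the left anterior descending artery of the heart. MI rats underwent LAD ligation and received no treatment. iCarP+/Light+ rats underwent the same ligation, were injected in the infarcted LV with Chlorella, a photosynthetic green alga, and received a patch that was glued to the heart and illuminated. None of these was given to MI rats, so that alga, patch, glue and light cannot be told apart here, and RNA-seq of patch-treated rats without light was not analysed here. Per the labels, tissue was taken from the infarct region 1 day after surgery.

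VEGF ligands are secreted proteins that act on receptor tyrosine kinases of endothelial cells. Kdr carries most of the signal for endothelial growth and permeability, whereas Flt1 binds VEGF-A, VEGF-B and placental growth factor tightly, and its soluble form traps ligand. Angiopoietin-1 activates the receptor Tek and steadies vessels, and angiopoietin-2, released by activated endothelium, often opposes it. Adrenomedullin widens vessels and tightens the endothelial barrier through Calcrl with Ramp2 or Ramp3. Transcription of Vegfa and Adm is known to rise in low oxygen.

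Total counts per rat ranged from 14064414 to 17136958, and the lowest count of any of the 10 genes was 23. Levels are given as CPM, which corrects counts for library size and, by the TMM method, for composition, and levels of different genes are compared only as CPM per kilobase (kb) of gene length. Ratios of genes within a rat are of plain CPM, with no correction for length, and serve only to compare groups, where gene length cancels out: their size does not say which gene had the higher level. Mitochondrial genes took 22.8% to 28.9% of counts in Sham, 8.52% to 11.5% in MI rats and 7.14% to 14.2% in the iCarP+/Light+ group. Summed cardiomyocyte markers were at 41060 to 45040 CPM in Sham, 2582 to 5576 in MI rats and 2565 to 6449 in the iCarP+/Light+ group. Over the same groups, leukocyte markers were at 301 to 496, 4632 to 8140 and 7203 to 12940 CPM, and endothelial markers at 2107 to 2379, 1301 to 1726 and 1665 to 1930 CPM. Of the endothelial markers, Cldn5 was listed at 0 counts in every rat, whereas Cdh5, the cadherin of endothelial junctions, was at 522 to 651, 176 to 297 and 286 to 315 CPM. In such bulk tissue, fewer cells of a type and less RNA per cell cannot be told apart.

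Per kb, Vegfb was the highest of the 10 genes in Sham rats, at 156 ± 8.35 CPM per kb (mean ± SD, n = 4), followed by Vegfa at 78.6 ± 7.89. The receptors Kdr (36.8 to 43.4), Tek (35.7 to 40.4) and Flt1 (31.1 to 37.0 CPM per kb) came next, and neighbours among them overlapped. Adm, Vegfc and Angpt1 overlapped between 6.68 and 13.0 CPM per kb, ahead of Angpt2 (5.07 to 6.57) and Pgf (2.82 to 3.61). In MI rats the order was led by Vegfa (34.7 ± 18.7), Vegfb (25.8 ± 3.22), Tek (22.0 ± 5.12), Flt1 (21.6 ± 7.15) and Kdr (19.8 ± 5.82 CPM per kb), with overlap between each neighbouring pair. Angpt1 was lowest in MI, at 0.680 to 1.97 CPM per kb, below all Vegfc values (4.27 to 5.49). In iCarP+/Light+ rats Vegfa stood alone at 62.0 to 114 CPM per kb. Adm (24.8 to 42.1) and Pgf (19.9 to 29.6 CPM per kb) came next in mean level, after ranks of 8 and 7 in MI rats and of 6 and 10 in Sham.

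**Figure D1:**
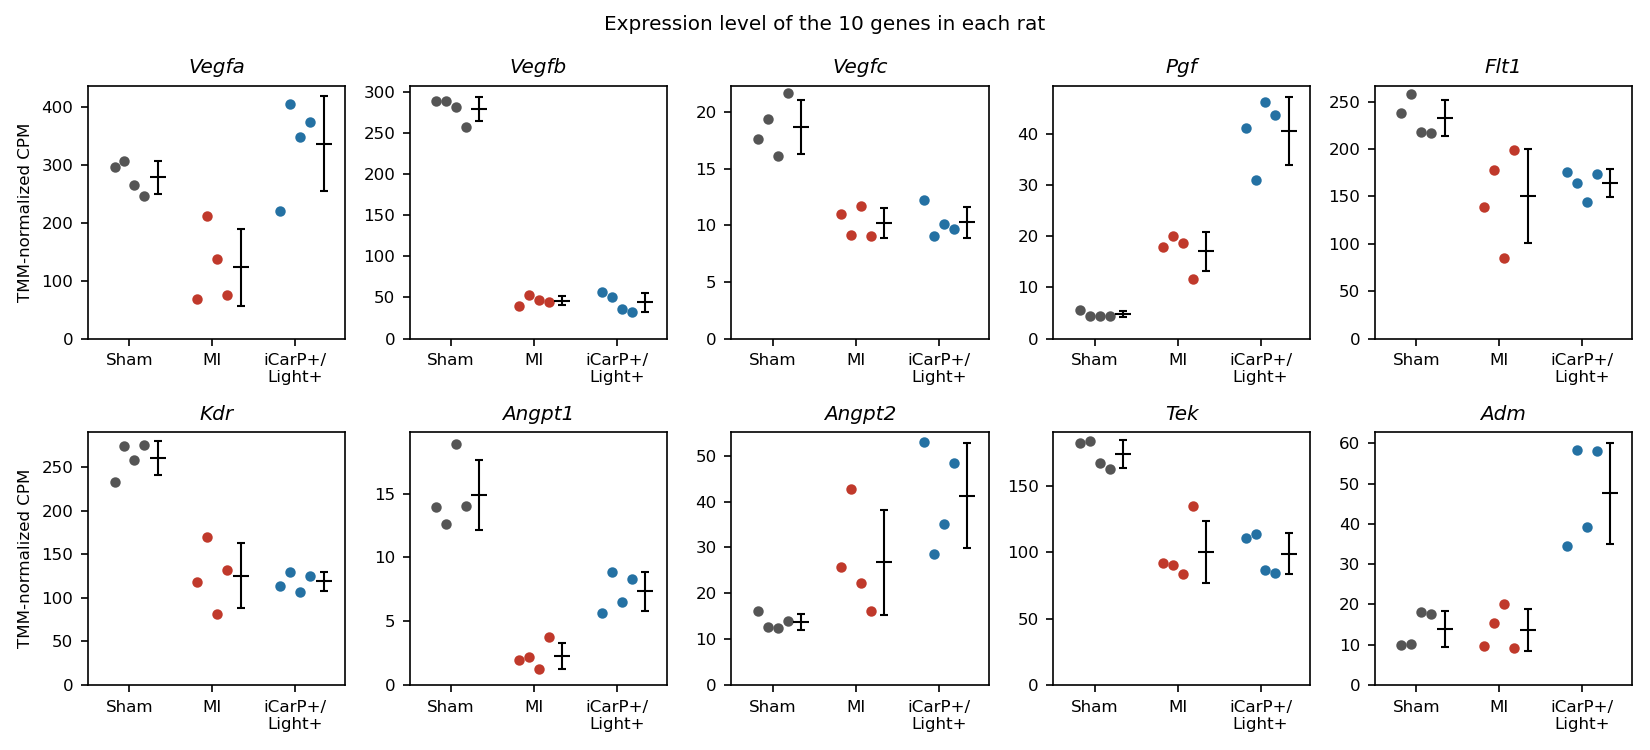
TMM-normalized CPM of each of the 10 genes (y axis, starting at 0, own scale per gene) in each rat (points) by group, with the group mean ± SD (bar, n = 4). Vegfa, Pgf, Angpt1 and Adm are higher in every iCarP+/Light+ rat than in every MI rat, whereas Vegfb, Vegfc, Kdr, Flt1 and Tek overlap between these groups and lie below all Sham rats.

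The promoters of 4 of the genes are shown because the data moved them apart: Adm and Pgf rose with the patch, and the receptors Kdr and Flt1 were lower in MI than in Sham rats. Each sequence is the 250 bases before the gene start in RefSeq's annotation of GRCr8, read 5′ to 3′ along the gene. Hypoxia-inducible factors bind a short core that is written ACGTG in its first form searched here. The second form, GCGTG, is also the core bound by the aryl hydrocarbon receptor, and the first form occurs inside the E box. Both were searched on both strands. Matches are in capitals, and a match on the opposite strand is printed as CACGC.
Adm (chr1:174179950-174180199, plus strand): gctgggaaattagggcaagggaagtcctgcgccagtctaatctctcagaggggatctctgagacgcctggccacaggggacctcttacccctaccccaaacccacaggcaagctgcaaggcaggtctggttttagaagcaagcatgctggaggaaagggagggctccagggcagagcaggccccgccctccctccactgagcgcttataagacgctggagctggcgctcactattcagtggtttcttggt
Pgf (chr6:110557748-110557997, minus strand): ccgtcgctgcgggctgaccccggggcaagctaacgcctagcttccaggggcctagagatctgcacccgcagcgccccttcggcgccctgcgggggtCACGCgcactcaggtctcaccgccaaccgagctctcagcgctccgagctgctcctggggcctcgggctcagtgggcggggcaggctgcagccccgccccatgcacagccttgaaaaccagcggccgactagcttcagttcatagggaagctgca
Kdr (chr14:32571813-32572062, plus strand): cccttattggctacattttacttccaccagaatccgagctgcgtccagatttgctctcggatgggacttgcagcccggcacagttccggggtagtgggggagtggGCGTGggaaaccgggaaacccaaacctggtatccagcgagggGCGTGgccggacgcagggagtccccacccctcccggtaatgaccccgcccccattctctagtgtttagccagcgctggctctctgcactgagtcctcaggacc
Flt1 (chr12:12333180-12333429, plus strand): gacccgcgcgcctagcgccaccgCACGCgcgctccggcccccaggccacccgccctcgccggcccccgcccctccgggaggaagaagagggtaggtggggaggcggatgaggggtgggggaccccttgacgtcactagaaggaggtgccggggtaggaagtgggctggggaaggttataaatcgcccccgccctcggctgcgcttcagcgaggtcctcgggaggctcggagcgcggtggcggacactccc

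Of the 10 genes, 7 had a promoter in this table, and Vegfa had 2 entries. GCGTG was present in 4 of the 7 genes. It was at positions -154 to -150 of Pgf and -227 to -223 of Flt1, counted back from the gene start, and at -145 to -141 and -103 to -99 of Kdr. In Vegfb it was at -68 to -64. ACGTG was present in none of the 7, and Vegfa, Vegfc and Adm held neither motif in these windows. Among 33469 rat promoter windows of the same length, 16.6% held ACGTG, 25.9% held GCGTG and 36.7% held either. Of the 3 genes with a window that rose from MI to iCarP+/Light+, Pgf held a match, whereas Vegfa and Adm did not. Only these 250 bases were searched, so the absence of a match says nothing about sites farther from the gene start.

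The comparison of MI with Sham addressed what ligation changed in untreated rats. By edgeR's quasi-likelihood test, 2 of the 10 genes rose (Pgf and Angpt2), 7 fell (Vegfa, Vegfb, Vegfc, Flt1, Kdr, Angpt1 and Tek) and Adm did not pass. For the 9 that passed, no MI rat overlapped with a Sham rat. Of all genes tested, 63.8% passed in this comparison, 30.2% higher and 33.6% lower, and 59.0% did not overlap (27.6% higher and 31.4% lower), so that a count of calls alone does not set the 10 genes apart. Their median log2 fold change was -0.83, against -0.06 over all genes. In the comparison of iCarP+/Light+ with MI, which addressed the effect of the illuminated patch, 4 of the 10 genes rose (Vegfa, Pgf, Angpt1 and Adm), against 11.6% of all genes that rose, 2.01% that fell and 13.6% that passed in either direction. None of the 10 fell by edgeR, DESeq2 or limma-voom, and none was lower at an unadjusted p below 0.05. Their median log2 fold change was 0.38, against 0.01 over all genes. The 4 genes that rose did not overlap between the groups, compared with 12.1% of all genes that were higher and 4.37% that were lower without overlap.

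**Figure D2:**
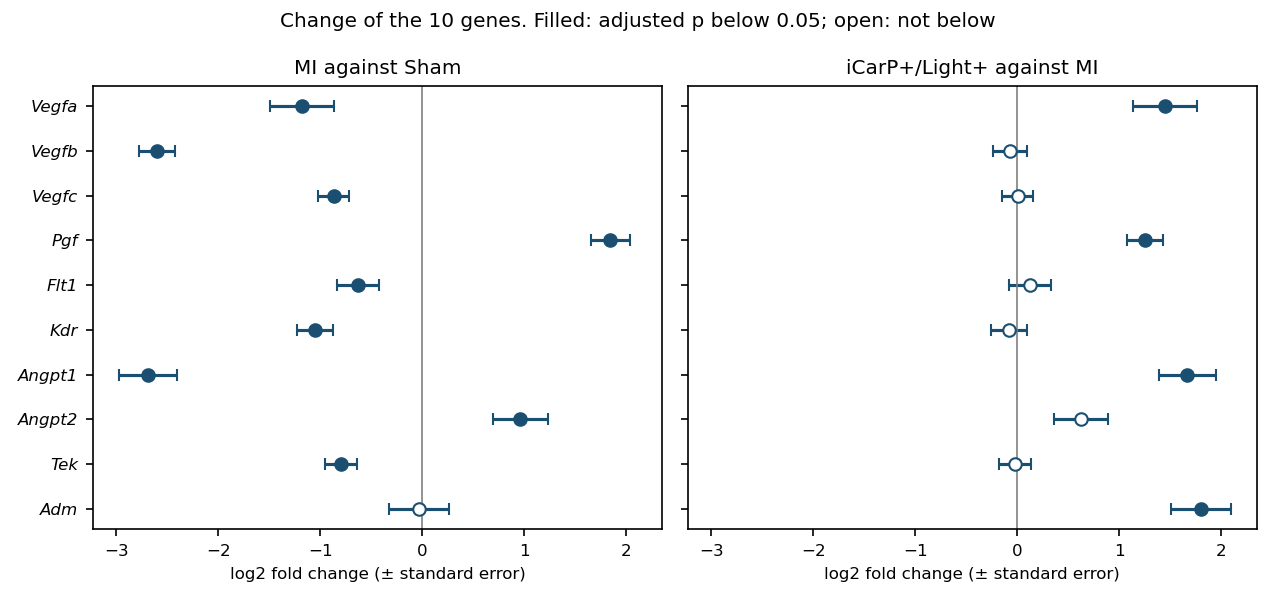
Log2 fold change ± standard error (x axis) of the 10 genes from Sham to MI (left) and from MI to iCarP+/Light+ (right), from edgeR. Filled points passed an adjusted p below 0.05. The comparisons share the MI rats. Vegfa and Angpt1 lie below 0 on the left and above 0 on the right, whereas Flt1, Kdr and Tek lie below 0 on the left and between -0.08 and 0.13 on the right.

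Among the ligands, Vegfa, the main driver of endothelial growth, fell with infarction and was higher again with the patch. Its levels were 297, 306, 266 and 245.6 CPM in Sham rats 1, 2, 3 and 5. They were 69.0, 211, 137 and 75.0 CPM in MI rats 1, 3, 4 and 5, and 220, 406, 348 and 375 CPM in iCarP+/Light+ rats 1, 2, 4 and 5. All MI rats were below all rats of the other groups, but MI rat 3 and iCarP+/Light+ rat 1 were close to each other. MI differed from Sham by -1.18 on the log2 scale (SE, the standard error, 0.31, adjusted p = 0.0049, edgeR) and iCarP+/Light+ from MI by 1.45 (SE 0.31, adjusted p = 0.00704, edgeR). The difference of iCarP+/Light+ from Sham, 0.27 (SE 0.31), did not pass (adjusted p = 0.449, edgeR): iCarP+/Light+ rat 1 was below every Sham rat, and rats 2, 4 and 5 were above every Sham rat.

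Vegfb, a ligand of Flt1 that is abundant in cardiac muscle, fell to a much lower level in both infarcted groups. It was measured at 289, 290, 282 and 258 CPM in the Sham rats, in the order given above. The MI rats were at 39.5, 53.4, 46.7 and 45.0 CPM, and the iCarP+/Light+ rats at 57.1, 50.8, 35.6 and 32.7 CPM. No infarcted rat was above 57.1 CPM, far under the lowest Sham rat, and the MI and iCarP+/Light+ rats overlapped. The decrease was -2.60 on the log2 scale in MI (SE 0.18, adjusted p = 1.27e-07, edgeR), and iCarP+/Light+ rats differed from MI rats by -0.07 (SE 0.17, adjusted p = 0.85, edgeR). Summed cardiomyocyte markers were lower in the same rats (9 of 9 tested fell from Sham to MI, 0 of 9 passed from MI to iCarP+/Light+ in edgeR, DESeq2 or limma-voom, and 0 of 9 had an unadjusted p below 0.05), and their part in the level of Vegfb was not tested.

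Vegfc, the ligand of the lymphatic receptor Flt4, fell in both infarcted groups too. Sham rats were at 17.6, 19.4, 16.1 and 21.7 CPM, MI rats at 11.0, 9.12, 11.7 and 9.10 CPM, and iCarP+/Light+ rats at 12.2, 9.06, 10.1 and 9.71 CPM. Every infarcted rat was below every Sham rat, and the infarcted groups covered nearly the same range. The log2 fold change was -0.87 in MI (SE 0.15, adjusted p = 0.000205, edgeR) and 0.01 for iCarP+/Light+ against MI (SE 0.15, adjusted p = 0.99, edgeR).

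Pgf, placental growth factor, a ligand of Flt1 linked to recruitment of monocytes and growth of collateral vessels, rose in steps over the 3 groups. Its counts were low in Sham rats, between 58 and 78 reads, or 5.64, 4.44, 4.40 and 4.50 CPM. The MI rats were at 17.8, 20.01, 18.7 and 11.5 CPM, and the iCarP+/Light+ rats at 41.1, 31.1, 46.3 and 43.7 CPM. No rat overlapped with a rat of another group. The rise was 1.84 on the log2 scale from Sham to MI (SE 0.19, adjusted p = 2.92e-06, edgeR) and 1.25 for iCarP+/Light+ against MI (SE 0.18, adjusted p = 0.000401, edgeR). Leukocyte markers rose in the same comparisons, with 11 of 11 tested higher in MI than in Sham, and 6 higher and 1 lower in iCarP+/Light+ than in MI. Their part in the level of Pgf was not tested.

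The make-up of the 4 VEGF ligands, as shares of their summed CPM per kb, was led by Vegfb in Sham and by Vegfa in iCarP+/Light+ rats. This measure was added after the data were seen and is given with no test. Vegfb made up 63.4% ± 1.13 (SD, n = 4) in Sham, 35.3% ± 6.78 in MI rats and 16.8% ± 6.14 in the iCarP+/Light+ group. Vegfa made up 31.8% ± 1.26, 43.2% ± 10.3 and 62.4% ± 8.97 in the same order. Pgf made up 1.23% ± 0.136 in Sham, 14.8% ± 3.43 in MI rats and 17.5% ± 3.95 in the iCarP+/Light+ group, and the infarcted groups overlapped. Vegfc was a minor part, at 3.58% ± 0.628, 6.74% ± 2.04 and 3.28% ± 0.877. The summed level itself was 247 ± 15.5 CPM per kb in Sham, 76.2 ± 23.2 in MI rats and 151 ± 17.4 in the iCarP+/Light+ group, so that the higher summed level with the patch remained below every Sham rat (126 to 167 against 227 to 261 CPM per kb). Within single rats, the log2 ratio of Vegfa to Vegfb in plain CPM, whose size is not that of the levels per kb, lay between -0.08 and 0.08 in Sham, 0.74 and 1.98 in MI rats and 1.94 and 3.51 in the iCarP+/Light+ group. It was higher by 1.28 in MI rats and by 2.94 in iCarP+/Light+ than in Sham (exact permutation test, p = 0.0286 each, the smallest p that 4 rats against 4 allow, and 0.0735 after adjustment over 18 tests of 6 ratios in 3 comparisons). The difference between the infarcted groups, 1.67, had p = 0.0571 (exact permutation test, adjusted p = 0.103), and MI rat 3 overlapped with iCarP+/Light+ rat 1.

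**Figure D3:**
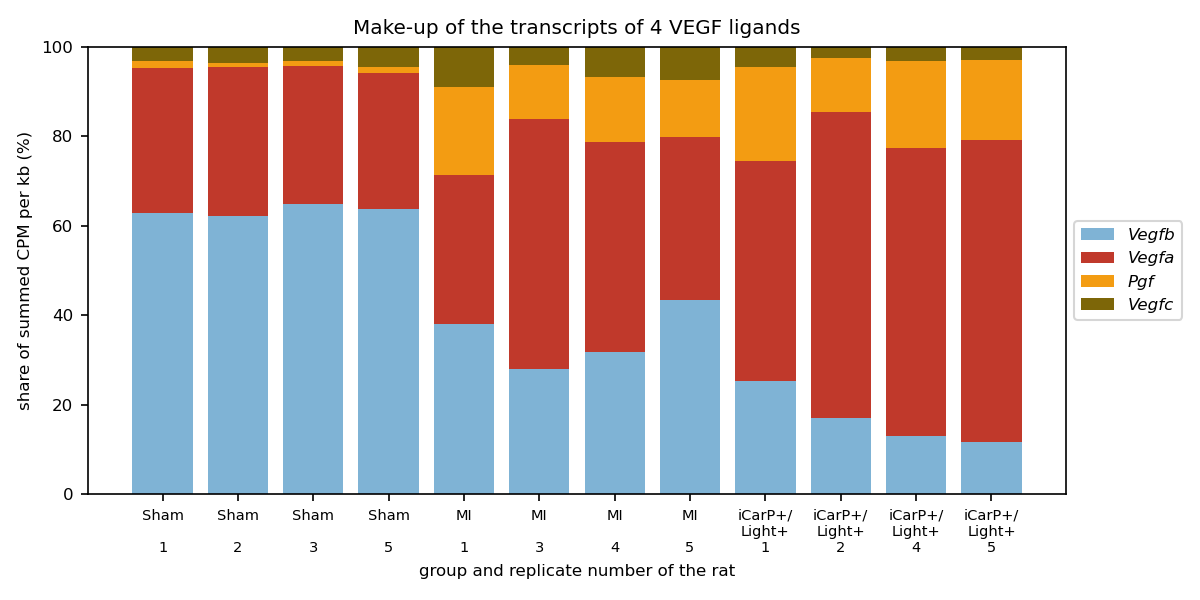
Share of each VEGF ligand in the summed CPM per kb of Vegfa, Vegfb, Vegfc and Pgf (y axis, percent), with a stacked bar for each rat. Vegfb takes 62.3% to 64.9% in the Sham rats and 11.7% to 25.4% in the iCarP+/Light+ rats, whereas Vegfa takes 30.6% to 33.1% and 49.2% to 68.5%.

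Among the VEGF receptors, Kdr fell in both infarcted groups. It was at 233, 274, 258 and 275 CPM in Sham rats, 118, 170, 81.0 and 132 CPM in MI rats and 114, 130, 107 and 124 CPM in the iCarP+/Light+ group. Every infarcted rat was below every Sham rat, and the 4 iCarP+/Light+ rats lay inside the range of the MI rats. MI differed from Sham by -1.05 on the log2 scale (SE 0.18, adjusted p = 0.000204, edgeR) and iCarP+/Light+ from MI by -0.08 (SE 0.18, adjusted p = 0.827, edgeR).

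Flt1, the receptor shared by Vegfa, Vegfb and Pgf, was lower in both infarcted groups. Counts per gene do not separate its membrane form from its soluble form. Sham rats were at 238, 258, 218 and 217 CPM, MI rats at 139, 178, 85.4 and 199 CPM, and iCarP+/Light+ rats at 175, 164, 144 and 174 CPM. The MI rats were the most spread, with rat 5 close to the lowest Sham rat and rat 4 far below it. The log2 fold change from Sham to MI was -0.63 (SE 0.20, adjusted p = 0.0156, edgeR) and missed the threshold when only these groups were fitted (-0.49, adjusted p = 0.0903, edgeR). From MI to iCarP+/Light+ it was 0.13 (SE 0.20, adjusted p = 0.758, edgeR). The difference of iCarP+/Light+ from Sham, -0.50 (SE 0.20, adjusted p = 0.0426, edgeR), passed in 3 of 12 fits that left out 1 rat each, those without MI replicate 3, 4 or 5, and in 5 of 9 other settings.

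Tek, the angiopoietin receptor, was at 182, 184, 167 and 163 CPM in Sham rats. MI rats were at 91.8, 90.7, 83.3 and 135 CPM, and iCarP+/Light+ rats at 110, 114, 86.9 and 84.5 CPM. All infarcted rats were below all Sham rats, and MI rat 5 was above every iCarP+/Light+ rat. MI differed from Sham by -0.80 on the log2 scale (SE 0.16, adjusted p = 0.000609, edgeR) and iCarP+/Light+ from MI by -0.02 (SE 0.16, adjusted p = 0.961, edgeR).

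The receptors are made largely by endothelial cells. Of 12 endothelial markers, 7 were lower and 1 higher from Sham to MI in edgeR, where 33.6% of all genes fell and 30.2% rose. DESeq2 gave 5 lower and 1 higher. From MI to iCarP+/Light+, 0 of the 12 passed in edgeR, DESeq2 or limma-voom, and 2 were higher and 0 lower at an unadjusted p below 0.05 in edgeR. Each receptor was therefore set against the mean log2 CPM of these 12 markers in the same rat. Robo4 had the same weight in this mean as the others, but it was low and variable. It was at 1.74 ± 1.87 CPM in Sham, 0.451 ± 0.263 in MI rats and 3.19 ± 5.99 in the iCarP+/Light+ group (SD, n = 4). The log2 CPM of Kdr minus this mean, not corrected for gene length, was 1.14 to 1.66 in Sham, 0.56 to 1.25 in MI rats and 0.53 to 1.10 in the iCarP+/Light+ group. It was lower relative to the markers by -0.76 in iCarP+/Light+ than in Sham (exact permutation test, p = 0.0286, adjusted p = 0.0735) and by -0.59 in MI than in Sham, with overlap (exact permutation test, p = 0.0571, adjusted p = 0.103). For Flt1 the difference of MI from Sham was -0.19 (exact permutation test, p = 0.486, adjusted p = 0.545), and for Tek it was -0.31 (exact permutation test, p = 0.0571, adjusted p = 0.103). With Cdh5 alone in place of the 12 markers, chosen after the data were seen, these differences of MI from Sham turned to 0.20 for Kdr, 0.60 for Flt1 and 0.48 for Tek, so that their direction rests on the markers used. The difference of Kdr in iCarP+/Light+ from Sham was -0.20 with Cdh5 alone (exact permutation test, adjusted p = 0.206). Against the 12 markers and without 1 rat, the difference of Flt1 in MI from Sham lay between -0.28 and -0.024. The log2 ratio of Flt1 to Kdr, also in plain CPM, needs no such marker. It was -0.34 to 0.03 in Sham, 0.06 to 0.59 in MI rats and 0.33 to 0.62 in the iCarP+/Light+ group, higher than in Sham by 0.40 in MI rats and by 0.63 in the iCarP+/Light+ group (exact permutation test, p = 0.0286 each, adjusted p = 0.0735).

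The ligands of Tek changed in opposite directions in MI. Angpt1, which activates Tek, was at 13.9, 12.6, 18.9 and 14.0 CPM in Sham, 1.96, 2.21, 1.29 and 3.72 CPM in MI rats and 5.63, 8.88, 6.50 and 8.30 CPM in the iCarP+/Light+ group. The 3 groups did not overlap, and the MI values came from 23 to 70 reads per rat. Angpt1 fell by 2.69 on the log2 scale from Sham to MI (SE 0.29, adjusted p = 3.9e-06, edgeR) and rose by 1.67 with the patch (SE 0.28, adjusted p = 0.00142, edgeR). It stayed lower in iCarP+/Light+ than in Sham rats, at -1.02 (SE 0.27, adjusted p = 0.0045, edgeR). Of the markers of mural cells and fibroblasts, which are known to make Angpt1, 4 of 9 and 7 of 8 fell from Sham to MI, where 33.6% of all genes fell. The other 5 mural markers did not pass, with values from -0.42 (Notch3) to 0.45 (Acta2) on the log2 scale. From MI to iCarP+/Light+, 0 of 9 mural markers passed in edgeR and limma-voom and 2 fell in DESeq2, and 2 were lower at an unadjusted p below 0.05 in edgeR. Of 8 fibroblast markers, Dcn rose (0.73 on the log2 scale, with overlap), and 6 of the 7 that did not pass had values below 0, among them Lum (-0.58) and Col3a1 (-0.42, without overlap), with a median of -0.34 over the list. The part of either list in the level of Angpt1 was not tested.

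Angpt2, the context-dependent antagonist, was at 16.1, 12.6, 12.4 and 13.9 CPM in Sham, 25.9, 42.8, 22.1 and 16.1 CPM in MI rats and 53.0, 28.5, 35.2 and 48.5 CPM in the iCarP+/Light+ group. MI rat 5 exceeded the highest Sham rat by less than 0.1 CPM, and MI rat 3 lay within the iCarP+/Light+ range. The rise was 0.96 on the log2 scale from Sham to MI (SE 0.27, adjusted p = 0.00746, edgeR). The value for iCarP+/Light+ against MI was 0.63 (SE 0.27, adjusted p = 0.155, edgeR), and 0.95 without MI replicate 3 (adjusted p = 0.0169, edgeR). Angpt2 overlaps with a gene on the opposite strand, Mcph1, whose highest count was 107, and the strand setting of the counting is not given in the sources used here.

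The ratio of Angpt2 to Angpt1 in plain CPM in single rats was 0.657 to 1.15 in Sham, 4.22 to 18.4 in MI rats and 3.18 to 9.23 in the iCarP+/Light+ group. All infarcted rats were above all Sham rats. The log2 ratio was higher than in Sham by 3.58 in MI rats and by 2.56 in the iCarP+/Light+ group (exact permutation test, p = 0.0286 each, adjusted p = 0.0735). From MI to iCarP+/Light+ the difference was -1.02 with overlap between the groups (exact permutation test, p = 0.143, adjusted p = 0.214).

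**Figure D4:**
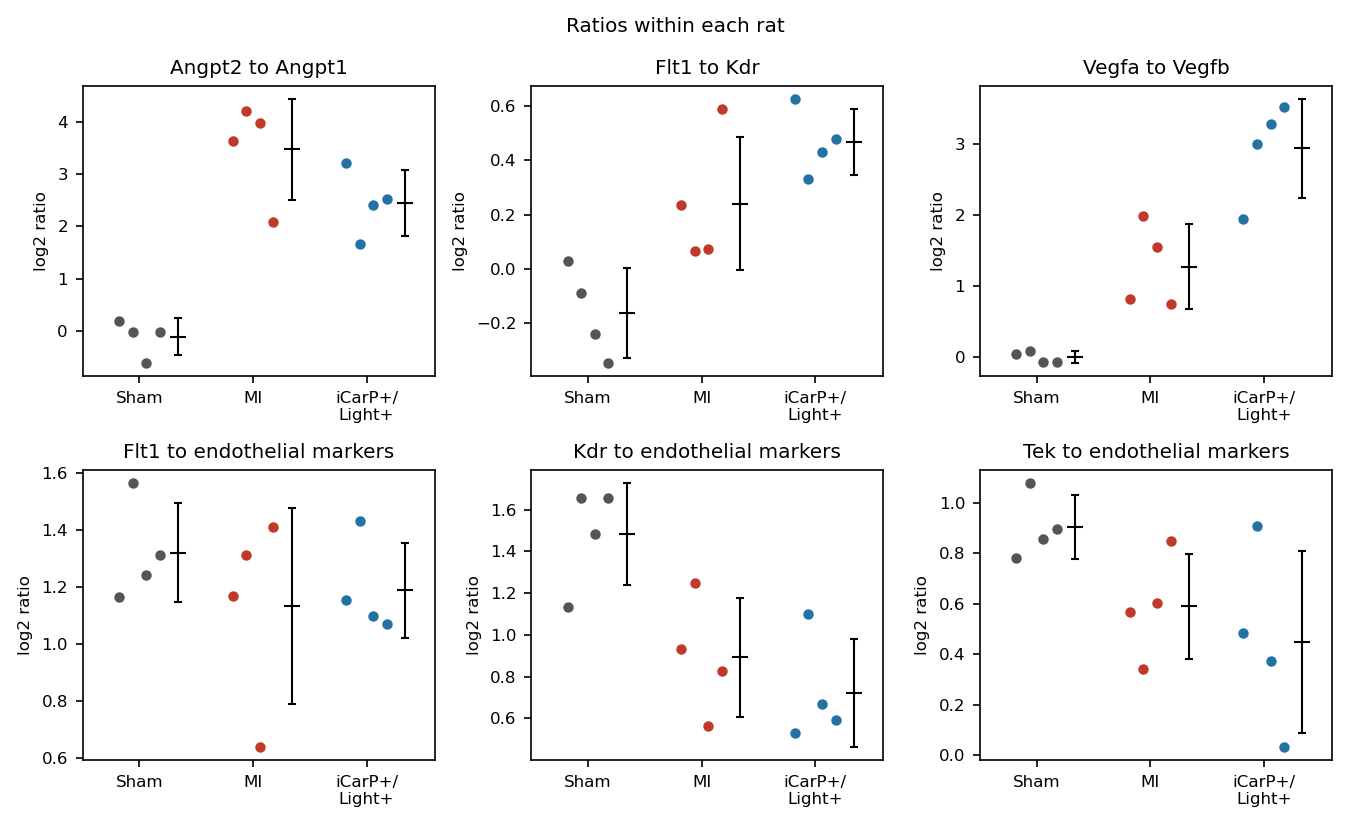
Log2 ratios of plain CPM within each rat (points; y axis, own scale per ratio) by group, with the group mean ± SD (bar, n = 4). Lower panels set a receptor against the mean log2 CPM of 12 endothelial markers. Angpt2 to Angpt1, Flt1 to Kdr and Vegfa to Vegfb are higher in all 8 infarcted rats than in the Sham rats.

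Adm passed in both comparisons with iCarP+/Light+ rats and not in that of MI with Sham. It was at 9.83, 10.2, 18.1 and 17.6 CPM in Sham, 9.67, 15.3, 20.2 and 9.31 CPM in MI rats and 34.4, 58.4, 39.2 and 58.2 CPM in the iCarP+/Light+ group. Sham and MI rats overlapped, and every iCarP+/Light+ rat was above all 8 of them. MI differed from Sham by -0.03 on the log2 scale (SE 0.29, adjusted p = 0.929, edgeR) and iCarP+/Light+ from MI by 1.80 (SE 0.29, adjusted p = 0.00109, edgeR). Against Sham, the value for iCarP+/Light+ was 1.77 (SE 0.30, adjusted p = 0.000156, edgeR). From MI to iCarP+/Light+, 6 of 11 leukocyte markers rose and 1 fell, and 4 of 6 red blood cell markers rose. Over all genes, 11.6% rose and 2.01% fell. The part of either list in the levels of Adm and Vegfa was not tested.

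Set against Sham, iCarP+/Light+ rats were higher in 3 of the 10 genes (Pgf 3.09, Adm 1.77 and Angpt2 1.59 on the log2 scale) and lower in 6 (Vegfb -2.67, Kdr -1.13, Angpt1 -1.02, Vegfc -0.86, Tek -0.82 and Flt1 -0.50). All 9 were without overlap. Of all genes, 66.5% passed in this comparison (33.5% higher and 33.0% lower), and 63.5% did not overlap (31.9% higher and 31.6% lower). The MI values of the same 9 genes against the same Sham rats were 1.84, -0.03, 0.96, -2.60, -1.05, -2.69, -0.87, -0.80 and -0.63, in the order just given.

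Scaling by total counts alone moved the median of all genes to 0.52 for MI against Sham, -0.25 for iCarP+/Light+ against MI and 0.33 for iCarP+/Light+ against Sham, against -0.06, 0.01 and 0.02 with TMM. The share of higher genes among those that passed went from 47.3% to 73.5%, from 85.2% to 30.7% and from 50.3% to 64.7%, and it was 70.8% with DESeq2 in the comparison of iCarP+/Light+ with MI. On that scale the decreases of Vegfa, Vegfc, Flt1 and Tek from Sham to MI no longer passed (-0.61, -0.30, -0.04 and -0.21), but relative to the median they were -1.13, -0.82, -0.56 and -0.73. The rises of Vegfa, Pgf, Angpt1 and Adm from MI to iCarP+/Light+ passed on it, at 1.44, 1.24, 1.64 and 1.79 relative to the median.

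Of 26 co-receptors, modulators and signalling partners of these pathways, 23 were tested. From Sham to MI, 6 rose and 11 fell, where 30.2% of all genes rose and 33.6% fell, with a median log2 fold change of -0.31 against -0.06 over all genes. This balance turned with libraries scaled by total counts alone, where 11 rose and 4 fell. With the scaling used throughout, the neuropilins Nrp1 (-1.04) and Nrp2 (-0.76), co-receptors of VEGF, and Tie1 (-0.73), the partner of Tek, fell along with the receptors, as did Plcg1 (-1.03) and Shb (-0.89), which act downstream of Kdr. The 6 partners that did not pass were Flt4 (0.49), Sh2d2a (0.48), Mme (0.46), Ramp1 (0.34), Nos3 (-0.07) and Vegfd (-0.31). Dok2 (3.24), an adaptor of Tek that leukocytes also express, and Sdc1 (5.13), a proteoglycan that binds growth factors, had the highest values. The lowest belonged to Pam (-2.13), which amidates adrenomedullin, and Ackr3 (-1.80), a scavenger of adrenomedullin and chemokines.

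The adrenomedullin receptor genes did not move together. Calcrl fell from 147 ± 8.20 CPM in Sham to 81.5 ± 4.08 in MI (SD, n = 4; log2 fold change -0.86, SE 0.12, adjusted p = 3.9e-05, edgeR) and its partner Ramp2 fell by 0.50 (adjusted p = 0.00826, edgeR). Ramp3 rose from 1.09 ± 0.607 to 8.94 ± 1.67 CPM (SD, n = 4; log2 fold change 3.02, adjusted p = 1.61e-05, edgeR). Ramp1 did not pass (0.34, adjusted p = 0.37, edgeR). From MI to iCarP+/Light+, where Adm rose, Calcrl (-0.08), Ramp2 (-0.28) and Ramp3 (-0.29) had adjusted p-values of 0.741, 0.249 and 0.649 (edgeR).

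In the comparison of iCarP+/Light+ with MI, 1 of the 23 partners rose and 1 fell, where 11.6% of all genes rose and 2.01% fell, with a median of 0.02 against 0.01 over all genes. Itgb3, an integrin subunit of activated vessels and platelets, was at 16.1 ± 6.77 CPM in MI rats and 34.1 ± 14.1 in the iCarP+/Light+ group (SD, n = 4; log2 fold change 1.08, SE 0.33, adjusted p = 0.0449, edgeR), with overlap. No partner was called higher in 5 of 10 other settings, total counts alone among them, or in 8 of 12 fits that left out 1 rat. Dok2 was at 138 ± 41.2 and 83.8 ± 4.73 CPM (SD, n = 4; -0.72, SE 0.17, adjusted p = 0.012, edgeR), with no overlap. Ackr3, with no overlap and a value of 0.81, had an adjusted p of 0.0536 (edgeR).

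**Figure D5:**
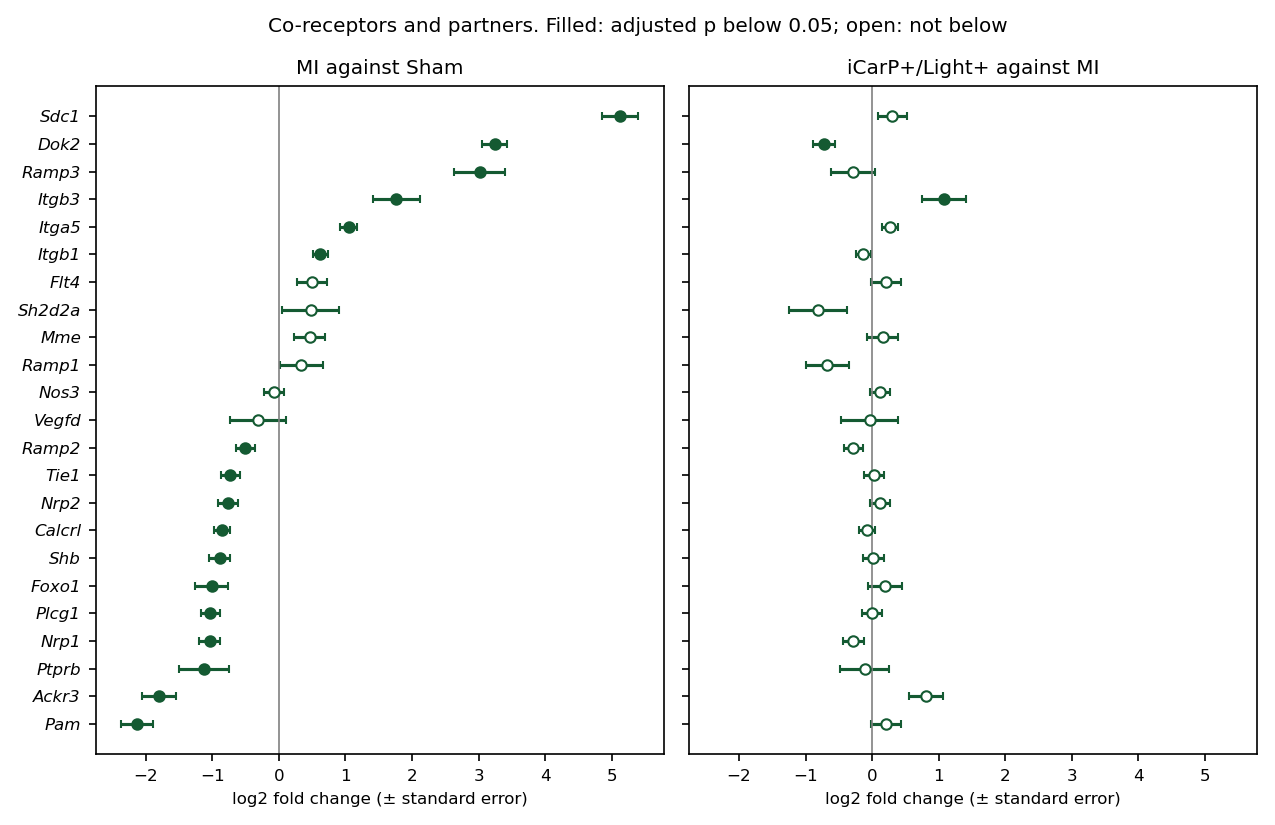
Log2 fold change ± standard error (x axis) of the 23 partner genes tested, ordered by their value from Sham to MI (left) and shown in the same order from MI to iCarP+/Light+ (right). Filled points passed an adjusted p below 0.05 in edgeR: 6 higher and 11 lower on the left, and Itgb3 and Dok2 on the right.

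Genes with the most alike pattern were sought for each of the 10 among 10712 protein-coding genes with a mean of at least 5 CPM. Likeness was the root mean square difference of log2 CPM over the 12 rats, each gene centred on its own mean, and it is a description over rats that share groups. Vegfa was closest to Egln1, an oxygen-sensing hydroxylase (0.19), then to Stc1 and Gbe1 (0.27 each), where the spread of Vegfa itself was 0.82. Egln1 was at 148, 65.9 and 170 CPM on average in Sham, MI and iCarP+/Light+ rats. Vegfb was closest to Ndufs1, a subunit of mitochondrial complex I (0.06), against its own spread of 1.27. Ndufs1 averaged 875, 144 and 134 CPM in the 3 groups.

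Pgf was closest to Nab2 (0.27), Zfand2a (0.27) and Icam1, a leukocyte adhesion molecule (0.29), against a spread of 1.27. Adm was closest to Noct (0.30), Tank (0.32) and Tiparp (0.33), against 0.94. For the receptors, whose own spreads were 0.41 for Flt1, 0.58 for Kdr and 0.44 for Tek, the differences were as follows: Flt1 from Ptprm 0.09, from RGD1308428 0.11 and from Peli2 0.13, Kdr from Lamb1 0.15, from AABR07069462.1 0.15 and from Shank3 0.17, and Tek from Papss2 0.11, from Ptgfrn 0.12 and from Slc38a1 0.13. Vegfc, with a spread of 0.44, had Poll (0.12), RGD735065 (0.12) and Timm50 (0.13) nearest. Angpt1, with a spread of 1.17, was nearest to Antxr1 (0.40), Entpd2 (0.41) and Zfp106 (0.42), and Angpt2, with a spread of 0.73, to Ctse (0.32), to the gene described as membrane associated ring-CH-type finger 3 (0.34) and to Errfi1 (0.36).

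Where the genes lie is given on rn6, the build that the processing notes name. Vegfa is on chromosome 9 (17340341 to 17355681, ENSRNOG00000019598), Vegfb on chromosome 1 (222239022 to 222242644), Vegfc on chromosome 16 (40440207 to 40555576) and Pgf on chromosome 6 (108994018 to 109004598). Flt1 is on chromosome 12 (9034308 to 9205905), Kdr on chromosome 14 (34727623 to 34787183) and Tek on chromosome 5 (113725717 to 113852799). Angpt1 is on chromosome 7 (81342280 to 81592206), Angpt2 on chromosome 16 (75966352 to 76016195) and Adm on chromosome 1 (175445088 to 175447259). All 10 are protein-coding. Vegfc and Tek each overlap with a small locus that had 0 counts in every rat.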

How the data were processed

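Total RNA of the LV of 12 rats was sequenced, 4 each from Sham, MI and iCarP+/Light+, with groups and replicate numbers as in the labels. The authors deposited raw read counts per gene, not normalized. The submitters' processing notes name HISAT2, featureCounts and rn6, with versions and strand setting not given in the sources used here. After a filter on low counts (filterByExpr, minimum count 10) and TMM scaling, edgeR 4.0.16 in R 4.3.3 was used to fit its quasi-likelihood model, with a mean for each group, over all 12 rats. p-values were adjusted by the Benjamini-Hochberg method over 15101 genes, with a threshold of 0.05. The labels give rats as separate samples without naming a batch. A floor of 3 counts corresponds to 0.175 to 0.213 CPM of total counts, without the TMM scaling of the levels given here, and covers counting error only. Ratios of log2 CPM (prior count 2) were put to exact permutation tests, two-sided, with 70 arrangements each. Within-group chi-square per gene was 14.0 to 111, so no library was a copy of another.

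The 10 genes, the lists, the tests and the naming rule were chosen with earlier results of these data known. From each list, the rule named the 2 genes that changed most in each direction among those that passed in a comparison, and for each of the 10 genes the 3 most alike. Other partner genes were named after their values were seen. Lists held 26 partner, 30 other angiogenic and 24 hypoxia-inducible genes, with markers of 6 cell types. Hspg2, Pecam1, Ttn and Itgam were not analysed here, and some items that the rule names are not reported here. Alternatives were DESeq2 1.42.0 (the test, and its size factors in edgeR), limma-voom (limma 3.58.1), total counts alone, other filters on low counts, no mitochondrial genes, only the groups compared, a replicate block, a fold of at least 2 and each rat left out. On simulated data, edgeR recovered 60 of 102 genes changed 2-fold and 80 of 98 changed 4-fold for iCarP+/Light+ against MI (14911 genes). Only these genes were changed, from means common to all groups. In the real comparison 13.6% of genes passed, so these recovery rates may not hold for it. Promoters were taken from RefSeq (GRCr8) by symbol.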

Additional observations from a re-analysis of the deposited data

Results flagged for a closer look

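Of 48 groups of 4 rats looked at for a rat far from the rest, 1 stood out, where chance gives about 2.4. It was the log2 level of Pgf in Sham rat 1, whose gap to the nearest rat was 0.915 of the range of the group. That rat was at 5.64 CPM (78 reads) and the other Sham rats at 4.40 to 4.50 CPM, so that Pgf remained lower in it than in any MI rat (11.5 to 20.01 CPM). The cause was not tested. With any 1 rat left out, the log2 fold change of Pgf from Sham to MI lay between 1.76 and 2.00, with an adjusted p of at most 2.48e-05 (edgeR).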

How the results depend on the processing

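The rises of Vegfa, Pgf, Angpt1 and Adm from MI to iCarP+/Light+ passed in all 9 other fits and in all 12 fits without 1 rat. With a fold of at least 2 added, 1 of the 10 genes was higher and 4 lower from Sham to MI, and 3 were lower from Sham to iCarP+/Light+. The partners then numbered 6 lower from Sham to MI, 0 lower from MI to iCarP+/Light+, and 5 higher and 4 lower from Sham to iCarP+/Light+. With total counts alone, 3 of the 10 genes were lower from Sham to MI, and the partners were 11 higher and 4 lower there and 0 higher and 5 lower from MI to iCarP+/Light+. Partners higher from MI to iCarP+/Light+ numbered 2 with DESeq2, limma-voom and the replicate block, and 0 with DESeq2's size factors, at least 10 counts in every rat, no mitochondrial genes and only the groups compared. Leaving out 1 rat gave 0 to 1 partners higher and 1 to 2 lower in that comparison, and 4 to 5 of the 10 genes higher. The cause of these shifts was not tested.

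The following values changed sign. For Adm from Sham to MI they were 0.040 with DESeq2 and with its size factors, 0.048 with at least 10 counts, 0.10 with only the groups compared, 0.54 with total counts, and -0.28 to 0.12 without 1 rat. For Vegfc from MI to iCarP+/Light+ they were -0.044 with DESeq2 and with its size factors, -0.051 with at least 10 counts, -0.0063 without a filter, -0.034 without mitochondrial genes, -0.033 with only the groups compared, -0.029 with the replicate block, -0.25 with total counts, and -0.091 to 0.073 without 1 rat. In the same comparison Flt1 was at -0.16 with total counts and at -0.070 to 0.29 without 1 rat, and Kdr at 0.0040 with the replicate block and at -0.24 to 0.10 without 1 rat. Vegfb lay between -0.22 and 0.023 and Tek between -0.10 and 0.16 without 1 rat. Against Cdh5 alone, Flt1 turned to 0.60, -0.17 and 0.43 in MI against Sham, iCarP+/Light+ against MI and iCarP+/Light+ against Sham, Kdr to 0.20 in MI against Sham, and Tek to 0.48 and 0.11 against Sham in MI and iCarP+/Light+. Against the 12 markers, Flt1 in iCarP+/Light+ against MI lay between -0.11 and 0.15 without 1 rat. A planned reference of Pecam1 with Cdh5 was not run.

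Same-numbered rats are different animals, and their deviations from group means correlated at -0.15 to 0.07, which showed no pairing by number. Whether such rats were handled together was not tested. With the replicate block, Flt1 in iCarP+/Light+ against Sham no longer passed (-0.34, adjusted p = 0.148, edgeR), and no other call of the 10 genes changed. Depth limits Angpt1 in MI most, at 23 to 70 reads per rat.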

Other observations

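Other angiogenic signals, 30 genes, split in MI against Sham into 9 higher and 10 lower, shares near those of all genes (30.2% and 33.6%). The anti-angiogenic matrix protein gene Thbs1 (6.55 on the log2 scale, adjusted p = 8.33e-08, edgeR) and Angptl4 (5.00) were highest, and the Notch target Hey1 (-2.01) and the apelin receptor Aplnr (-1.96) were lowest. In iCarP+/Light+ against MI, 4 of the 30 rose and 1 fell, against 11.6% and 2.01% of all genes. The receptor of hepatocyte growth factor, Met (2.37, adjusted p = 0.00288, edgeR), and Thbs1 (1.23, adjusted p = 0.0209) had the highest values, and Jag1 (0.97) and Apln (1.09) were the other genes that rose, named after their values were seen. Thbs2 fell by 0.88 (adjusted p = 0.0465, edgeR).

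Of 24 hypoxia-inducible genes, a list to which neither Vegfa nor Adm belonged, 7 rose and 8 fell from Sham to MI, shares near the 30.2% and 33.6% of all genes, with a median log2 fold change of -0.21 against -0.06 over all genes. Pfkfb4 had the highest fitted value (3.23), but its Sham level, 0.199 ± 0.160 CPM (SD, n = 4), lay at the floor of 3 counts, so that the size of its rise is uncertain. Ndrg1 (2.56) came next, and Pdk1 (-2.19) and Egln3 (-1.81) were lowest. From MI to iCarP+/Light+, 21 of the 24 rose and none fell in edgeR, DESeq2 or limma-voom, and none was lower at an unadjusted p below 0.05 (median 1.37, against 0.01 over all genes). Ero1a (3.38) and the glucose transporter gene Slc2a1 (3.25) had the highest values, and Eno1 (0.77) and Higd1a (0.86) the lowest among those that rose. Red blood cell markers also rose from MI to iCarP+/Light+ in 4 of 6 genes, with 6256 to 17640 summed CPM against 2525 to 7033 in MI. Leukocyte markers moved in the same comparison, with 6 of 11 higher and 1 lower, a median log2 fold change of 0.84, and 7203 to 12940 summed CPM against 4632 to 8140 in MI. The list did not move as one, since S100a9 (3.53), S100a8 (3.37) and Csf3r (2.67), known as neutrophil genes, had the highest values, Cd3e (-1.25) fell, and Lyz2 (-0.45) and Cd68 (-0.39) did not pass; these genes were named after their values were seen. The part of either list in the hypoxia-inducible genes was not tested.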
